A study of Mus musculus with 26 samples.

Results

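The subject here is 10 neuropeptide genes expressed in mouse cortex, namely Vip, Sst, Cort, Npy, Cck, Grp, Crh, Tac1, Penk and Adcyap1, of 39179 gene entries in all. They were chosen by their measured levels in these libraries, because Vip, Cort and Grp differ with diet or with time on the diet, so their levels across diet and weeks are given as a description, and a call by the fit across all genes in those comparisons supports nothing about them. Stroke against sham was not part of that choice and was tested. RNA came from C57BL/6J mice whose diet drew 60% (high-fat) or 6% (control) of its calories from fat, over a period of 6 or of 15 weeks. The mice then had a focal ischemic stroke or a sham operation, and total RNA was taken 3 days after stroke from cortex holding the core and a rim of tissue around it. The 26 libraries are 3 control-diet and 3 high-fat sham libraries at 6 weeks, 4 control-diet and 6 high-fat stroke libraries at 6 weeks, and 4 control-diet and 6 high-fat stroke libraries at 15 weeks. Sham mice of the 15-week arm were not analysed here, and the labels give neither the age of the mice nor a batch. Age, a separate handling of the 15-week mice and time on the diet therefore cannot be told apart in any comparison of weeks. The libraries also differed in the share of reads outside genes. It was 18.9% to 22.6% in 6-week stroke, 22.7% to 32.1% in 15-week stroke and 23.2% to 27.6% in 6-week sham libraries. The part of this share in the comparisons of weeks and of stroke with sham was not tested.

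Neuropeptides are made as larger precursors, cut and trimmed by enzymes inside dense core vesicles, and released to act on G protein-coupled receptors. In cortex several of them mark classes of inhibitory interneurons. Vip marks cells that mainly inhibit other interneurons, and Sst marks cells that target dendrites of pyramidal neurons, some of which also make Npy and Cort. Cck, Adcyap1 and Grp are made by excitatory neurons as well, while Penk and Tac1, the enkephalin and substance P precursors, are abundant in the projection neurons of the neighbouring striatum. Several of these genes are known targets of the cAMP-responsive factor CREB, and the cAMP response element of the Sst promoter is a textbook example.

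Promoter sequences of Vip, Cort and Cck, which were lower at 15 weeks on the high-fat diet, are shown beside that of Sst, which was not. Each is the 120 bases before the RefSeq start of the gene in build GRCm38.p6, written 5′ to 3′ on the gene's strand, with every TGACG or its reverse complement CGTCA, the core of the cAMP response element, in capitals. The windows are chr10:5639098-5639217 on the plus strand for Vip, chr4:149126764-149126883 on the minus strand for Cort, chr9:121495695-121495814 on the minus strand for Cck and chr16:23890845-23890964 on the minus strand for Sst.
Vip: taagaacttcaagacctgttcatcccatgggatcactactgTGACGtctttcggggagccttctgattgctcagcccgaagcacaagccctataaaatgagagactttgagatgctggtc
Cort: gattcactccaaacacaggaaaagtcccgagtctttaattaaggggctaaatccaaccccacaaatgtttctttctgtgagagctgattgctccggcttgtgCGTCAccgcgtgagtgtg
Cck: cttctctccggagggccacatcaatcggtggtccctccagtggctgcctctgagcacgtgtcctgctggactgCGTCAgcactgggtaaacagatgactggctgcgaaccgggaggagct
Sst: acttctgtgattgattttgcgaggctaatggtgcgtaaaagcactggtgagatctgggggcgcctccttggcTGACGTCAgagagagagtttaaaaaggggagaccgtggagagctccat

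In Sst the overlapping cores form the full palindrome TGACGTCA, which begins 48 bases before the start. The core begins 79 bases before the start in Vip, 47 in Cck and 18 in Cort. The full windows of 300 bases, from 250 before to 50 after the start, were searched for 7 of the 10 genes. Grp, Crh and Penk were not covered. Of these 7 searched genes, 6 held the core on either strand. Tac1 held it 197 and 43 bases before its start and Adcyap1, which has 2 start sites in the table, the same match 91 and 242 bases before them, while Npy held none. The core occurs in 20.8% of all 32851 promoter windows and the palindrome in 1.79%. Genes that were lower and genes that were not both held the core. These are letter matches and do not show binding.

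Each library held between 11400882 and 16962682 counts in genes. All 10 neuropeptide genes passed the filter on low counts that left 16325 genes, with raw counts per library from 29 (the lowest of Crh) to 4894 (the highest of Cck). Neuronal markers were high. Slc17a7, the vesicular glutamate transporter of cortical pyramidal cells, lay between 387 and 595 CPM (gene counts scaled to a common library size by TMM). Gad1, which makes GABA, lay between 188 and 286 CPM. Of the hypothalamic peptide genes, Hcrt, Agrp, Oxt, Pmch and Avp were near 0, at most 0.264, 0.241, 0.288, 0.658 and 0.692 CPM in any library. Pomc reached 1.67 CPM with a median of 0.956, and Trh ranged from 0.806 to 8.71 CPM with a median of 1.92, within reach of the levels of Cort, Grp and Crh. Striatal genes were present in every library in uneven amounts. The summed level of 14 of them ranged from 243 to 1553 CPM, and Drd1, a dopamine receptor of striatal projection neurons, from 14.4 to 92.0 CPM. High-fat stroke library 6 at 6 weeks and high-fat sham library 2 stood apart by choroid plexus genes, with list means of 5.10 and 3.77 log2 CPM against at most 2.39 in the other libraries. At 15 weeks, high-fat stroke library 1 and control stroke library 3 had low means of the activated phagocyte list, 3.52 and 4.16 log2 CPM, against 5.79 to 6.67 in the other 8 stroke libraries of that time and 2.48 to 2.82 in sham.

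Per kilobase of exon, Cck was the most abundant of the 10 genes in control-diet sham cortex, at 221 ± 18.9 CPM per kb (SD, n = 3). Npy followed at 103 ± 5.04 and Sst at 87.8 ± 5.56 CPM per kb. Penk, at 60.0 ± 30.2 CPM per kb, had the widest spread and came within 1 SD of Sst. Vip stood at 18.5 ± 1.03 CPM per kb, apart from its neighbours on either side. Cort (8.78 ± 0.711), Tac1 (7.14 ± 3.05), Grp (5.89 ± 0.395), Adcyap1 (5.41 ± 0.807) and Crh (4.23 ± 1.16) each came within about 1 SD of the next. The order of neighbours among them is therefore not fixed by these libraries, while Cort and Grp lay further apart than their SDs. These lengths are exon unions of GENCODE M21, and the annotation the authors counted with is not given in the sources used here.

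**Figure D1:**
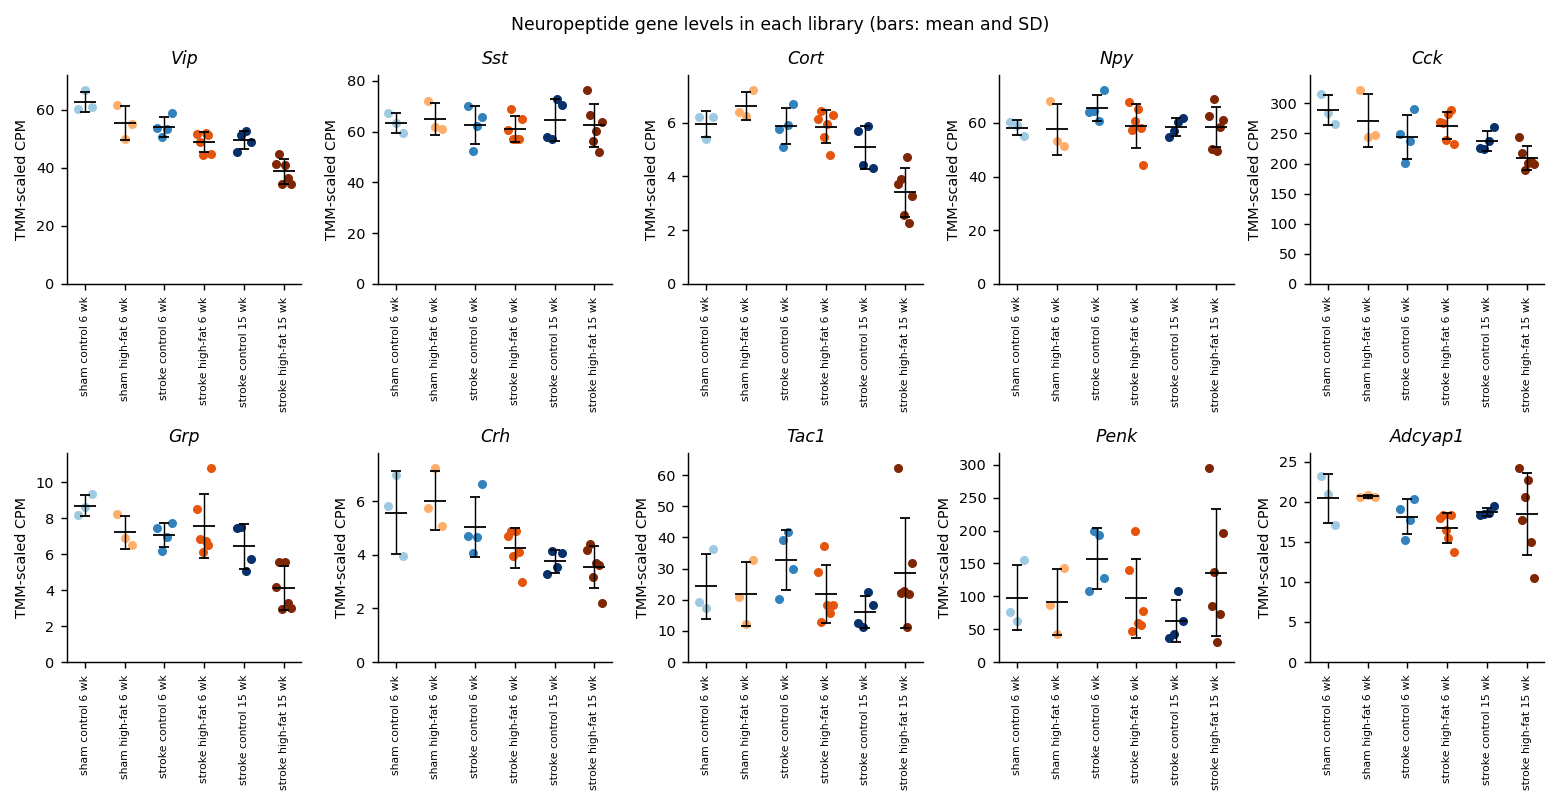
TMM-scaled CPM (vertical axes, starting at 0) of each of the 10 genes in every library, by group, with the group mean and SD as black bars. Vip, Cort and Grp are lowest in stroke on the high-fat diet at 15 weeks, with means of 38.8, 3.41 and 4.10 CPM, while Sst and Npy have similar means in all 6 groups and Penk ranges from 30.1 to 295 CPM.

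Stroke was first compared with sham at 6 weeks in mice fed the control diet, which asks how these transcripts differ in injured cortex after 3 days. None of the 10 genes passed the test across all genes, where 7.68% of the 16325 genes did (edgeR's quasi-likelihood test, Benjamini-Hochberg adjusted p below 0.05). Without adjustment 2 of the 10, Vip and Cck, had p below 0.05, as did 3791 of all genes, and DESeq2 also called 0 of the 10. The median log2 fold change of the 10 genes was -0.08, beside 0.00 for all genes tested. Reactive astrocyte and activated phagocyte markers changed in the same libraries, with 14 of 21 and 17 of 20 higher.

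Among the interneuron peptides, Vip had 60.5, 66.9 and 61.2 CPM in the 3 control-diet sham libraries and 53.7, 50.7, 53.5 and 58.9 CPM in the 4 stroke libraries. All 4 stroke values lay below all sham values, at a log2 fold change of -0.21 ± 0.09 (SE, edgeR's quasi-likelihood adjusted p = 0.149). Sst, the ligand of the somatostatin receptors, had 67.3, 63.4 and 59.3 CPM in sham and 70.1, 52.4, 62.1 and 65.6 CPM in stroke. The sham values lay inside the stroke range, and the log2 fold change was -0.02 ± 0.12. Cort, whose peptide binds the same receptors, had 6.23, 5.39 and 6.21 CPM in sham and 5.77, 5.09, 5.90 and 6.71 CPM in stroke, again inside the stroke range, at -0.02 ± 0.18 on the log2 scale. Npy, the precursor of neuropeptide Y, had 60.4, 59.2 and 54.95 CPM in sham and 64.1, 64.6, 60.8 and 72.3 CPM in stroke. Every stroke value of Npy was above every sham value, by a margin smaller than the spread within stroke, at 0.17 ± 0.12 on the log2 scale (edgeR adjusted p = 0.420).

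Cck, made by interneurons and by many pyramidal cells, had 315, 285 and 266 CPM in control-diet sham and 248.98, 201, 238 and 290 CPM in stroke. The groups overlapped through the stroke library at 290 CPM, and the log2 fold change was -0.24 ± 0.11 (edgeR adjusted p = 0.192). Grp, the gastrin-releasing peptide precursor, had 8.16, 8.60 and 9.32 CPM in sham and 7.46, 6.18, 6.96 and 7.70 CPM in stroke. All stroke values were lower, at -0.30 ± 0.21 on the log2 scale (edgeR adjusted p = 0.415). Crh, the corticotropin-releasing hormone precursor, and Adcyap1, the precursor of PACAP, overlapped between the groups, at -0.15 ± 0.22 and -0.17 ± 0.18. Tac1 and Penk had the largest positive differences and the largest errors, 0.43 ± 0.47 and 0.68 ± 0.63. In all, 3 of the 10 genes, Vip, Npy and Grp, did not overlap between stroke and sham in these mice, beside 26.5% of all genes tested, so this share is near the background.

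In high-fat mice at 6 weeks, stroke against sham uses other libraries, and again none of the 10 genes passed, where 23.1% of all genes did (edgeR's quasi-likelihood test). Without adjustment 2 of the 10, Crh and Vip, had p below 0.05, beside 5892 of all genes, and DESeq2 called 0 of the 10. The median log2 fold change was -0.07, beside -0.02 for all genes. This median depended on single sham libraries. It was -0.23 without high-fat sham library 2 and -0.03 without high-fat sham library 1, each beside -0.01 for all genes. In both of these fits 0 of the 10 were called. The injury lists changed here too, with 19 of 21 reactive astrocyte and 18 of 20 activated phagocyte markers higher. In bulk tissue, fewer cells that make a peptide and less transcript per cell cannot be told apart.

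Crh had the lowest unadjusted p of the 10 on the high-fat diet. Its sham libraries held 5.76, 7.23 and 5.09 CPM and its 6 stroke libraries between 3.00 and 4.90 CPM, with a median of 4.41. The groups did not overlap, and the log2 fold change was -0.50 ± 0.20 (edgeR adjusted p = 0.0725). Adcyap1 was within a narrow range in sham, at 20.6, 20.8 and 20.6 CPM, and between 13.7 and 18.3 CPM in stroke, with a median of 17.2. These groups did not overlap either, at -0.31 ± 0.16 on the log2 scale (edgeR adjusted p = 0.177). Vip had 61.5, 49.997 and 55.1 CPM in sham and from 44.3 to 52.002 CPM in stroke, with a median of 50.2. High-fat sham library 2, at 49.997 CPM, lay inside the stroke range, and the log2 fold change of -0.19 ± 0.08 (edgeR adjusted p = 0.110) was close to that in control-diet mice. The other 7 genes overlapped between the groups, so 2 of the 10 did not, beside 26.5% of all genes tested. The log2 fold changes of these 7 ran from -0.18 ± 0.16 for Cort to 0.08 ± 0.58 for Penk.

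The difference between these responses, stroke against sham on the high-fat minus the control diet, involves the diet and is given without a test. It was smallest for Vip at 0.03 ± 0.12 on the log2 scale and largest for Penk at -0.60 ± 0.84. Grp, at 0.37 ± 0.29, and Crh, at -0.35 ± 0.30, lay between, each a little over 1 SE from 0.

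**Figure D2:**
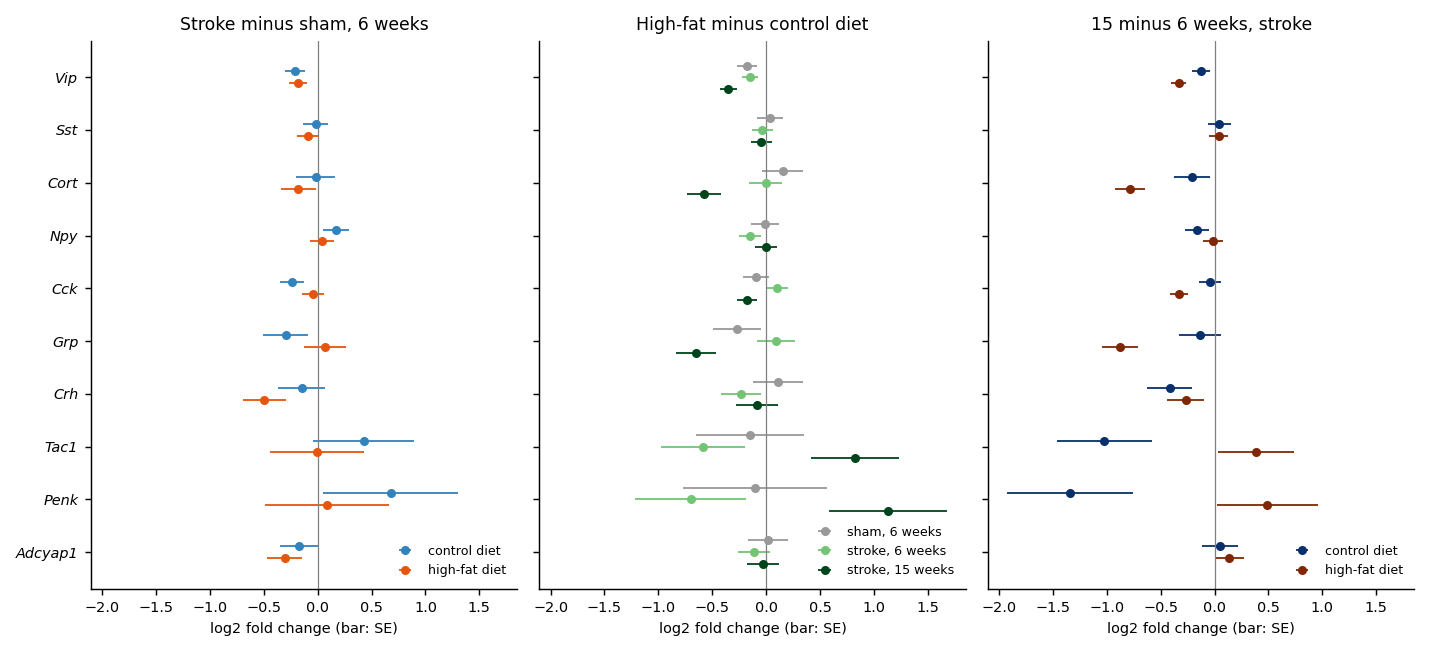
Log2 fold changes with SE (horizontal axes) of the 10 genes for stroke minus sham on both diets, for high-fat minus control diet in 3 settings, and for 15 minus 6 weeks in stroke on both diets. Cort and Grp lie at -0.78 and -0.88 for weeks on the high-fat diet, and the bars of Tac1 and Penk are the longest in every comparison.

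Across diet and weeks the levels are a description, because these comparisons chose the genes. Comparisons of diet and of weeks in stroke share libraries, so their values are set side by side. The groups did not overlap for 0 of the 10 genes for diet in 6-week stroke, beside 2.25% of all genes. The count was 1 for diet in 15-week stroke (1.12%), 1 for diet in sham (11.7%) and 1 for weeks in control stroke (9.38%). It was 2 for weeks in high-fat stroke (1.79%). These counts describe the chosen genes and support nothing. The fit called 4 of the 10 genes lower at 15 than at 6 weeks in high-fat stroke, namely Vip, Cort, Grp and Cck, where 1.62% of all genes were called lower and 2.35% in either direction. This count follows from the choice and supports nothing. In control-diet stroke 0 of the 10 were called between the weeks, where 0.564% of all genes were (0.325% lower) and 2742 genes had an unadjusted p below 0.05; DESeq2 called 0 of the 10 too. For diet in 6-week stroke, in 15-week stroke and in sham, 0.0% of all genes were called by edgeR, with 1141, 1299 and 782 genes at an unadjusted p below 0.05, while DESeq2 called 0, 10 and 2 genes, Vip among the 10.

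Vip was lowest in high-fat stroke at 15 weeks and highest in control sham. Its mean was 62.8 ± 3.51 CPM in control sham (SD, n = 3), 55.5 ± 5.78 in high-fat sham (n = 3), 54.2 ± 3.43 in control stroke at 6 weeks (n = 4), 48.8 ± 3.52 in high-fat stroke at 6 weeks (n = 6), 49.6 ± 3.18 in control stroke at 15 weeks (n = 4) and 38.8 ± 4.33 in high-fat stroke at 15 weeks (n = 6). At 15 weeks the 4 control libraries held 45.4, 51.3, 52.7 and 48.8 CPM, and the 6 high-fat libraries from 34.3 to 44.9 CPM with a median of 38.9. These groups did not overlap, and the difference was -0.35 ± 0.08 on the log2 scale, against -0.15 ± 0.08 at 6 weeks and -0.18 ± 0.10 in sham. In high-fat stroke the 15-week libraries were lower than the 6-week libraries by a log2 fold change of -0.33 ± 0.07, with an overlap at 44.3 to 44.9 CPM, and in control stroke the value was -0.13 ± 0.08.

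Cort, the scarcer of the somatostatin-related genes, held 5.69, 4.43, 5.87 and 4.33 CPM in control stroke at 15 weeks. In high-fat stroke at 15 weeks it ranged from 2.28 to 4.74 CPM with a median of 3.48, and at 6 weeks from 4.81 to 6.44 CPM with a median of 6.04. The high-fat groups of 6 and 15 weeks did not overlap, at -0.78 ± 0.14 on the log2 scale, while control stroke gave -0.21 ± 0.17. The diet difference was -0.58 ± 0.16 at 15 weeks and -0.00 ± 0.15 at 6 weeks, and the control and high-fat groups overlapped at 15 weeks. In sham, the 3 high-fat values of Cort (6.41, 6.24 and 7.22 CPM) were all above the 3 control values, at 0.16 ± 0.19. Over all genes, 11.7% did not overlap in that comparison. Sst, which shares its receptors with Cort, stayed between 52.1 and 76.4 CPM in all 26 libraries, and its diet and weeks differences lay between -0.04 and 0.04 on the log2 scale.

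Grp held 7.44, 7.52, 5.07 and 5.71 CPM in control stroke at 15 weeks. In high-fat stroke it ranged from 6.10 to 10.8 CPM at 6 weeks with a median of 6.80, and from 2.96 to 5.56 CPM at 15 weeks with a median of 3.74. The high-fat groups did not overlap, at -0.88 ± 0.17 on the log2 scale, the largest decrease among the 10 genes in that comparison, while control stroke gave -0.13 ± 0.20. The diet difference was -0.65 ± 0.18 at 15 weeks and 0.09 ± 0.18 at 6 weeks. Grp is also made in hippocampus and amygdala. The library at 10.8 CPM, high-fat stroke library 6 at 6 weeks, had the highest mean of the hippocampus and amygdala list without Grp, 3.98 log2 CPM, and without it the value between the weeks was -0.76. At 15 weeks the library highest in that list, high-fat library 6 at 3.55 log2 CPM, held 3.03 CPM of Grp. The part of neighbouring hippocampus or amygdala tissue in the Grp values was not tested.

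Cck held 226, 225, 237 and 261 CPM in control stroke at 15 weeks and from 189 to 244 CPM in high-fat stroke, with a median of 202, against a median of 268 CPM at 6 weeks on that diet. The high-fat groups of 6 and 15 weeks overlapped between 233 and 244 CPM, at -0.33 ± 0.08 on the log2 scale, and control stroke gave -0.04 ± 0.10. The call of Cck rested on single libraries. With 1 library left out at a time, Cck was called in 3 of 12 fits, those without high-fat stroke library 1 at 15 weeks or libraries 3 or 6 at 6 weeks. With only these 2 groups in the fit, Vip and Grp were not called.

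The mean of excitatory neuron, striatum or interneuron markers was also entered in the fit as a covariate. For weeks in high-fat stroke, Cort then had values between -0.73 and -0.83 and Grp between -0.86 and -0.89. Covariate values of Vip and Cck are not reported here. The choice of genes used this comparison, so these fits do not test the part of cell composition. Without both 15-week libraries low in injury genes, Vip had -0.34, Cort -0.80, Grp -0.87 and Cck -0.37 on the log2 scale. The excitatory neuron list mean itself was 6.74 ± 0.22 log2 CPM in high-fat stroke at 15 weeks and 6.83 ± 0.07 at 6 weeks. The interneuron list mean was 4.36 ± 0.17 and 4.30 ± 0.08 (SD, n = 6 each). Deviations of the interneuron list mean from group means correlated with those of Tac1 at r = 0.61, Penk 0.58, Sst 0.58 and Vip 0.003 over 26 libraries. The part of striatal tissue in this list mean was not tested. In the same comparison of weeks 2 of the 20 excitatory neuron markers were called lower, beside 1.62% of all genes. These were Neurod6 at -0.42 ± 0.07 and Nrn1 at -0.31 ± 0.08 (edgeR adjusted p = 0.00553 and 0.0381, named after their values were seen). The part of these 2 genes in the lower peptide values was not tested. The differential response by diet and weeks, diet at 15 weeks minus diet at 6 weeks, was -0.75 ± 0.26 for Grp, -0.57 ± 0.22 for Cort, -0.29 ± 0.13 for Cck and -0.20 ± 0.11 for Vip, where 0.0% of all genes were called by edgeR, 792 genes had an unadjusted p below 0.05 and DESeq2 called 0.

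Diet differences of Npy, Crh and Adcyap1 lay between -0.24 ± 0.19 (Crh in 6-week stroke) and 0.11 ± 0.23 (Crh in sham) on the log2 scale. The log2 difference of Npy in stroke was -0.15 ± 0.10 at 6 weeks, its means at 15 weeks were 58.5 ± 3.25 (n = 4) and 58.5 ± 7.54 CPM (n = 6), and its means were between 57.6 and 65.5 CPM in all 6 groups. Crh was lower at 15 weeks on both diets, at -0.42 ± 0.21 in control stroke and -0.27 ± 0.17 in high-fat stroke, with group means declining from 6.03 ± 1.09 CPM in high-fat sham (n = 3) to 3.55 ± 0.79 CPM in high-fat stroke at 15 weeks (n = 6), and the groups of 6 and 15 weeks overlapped on both diets. Adcyap1 was nearly uniform in control stroke at 15 weeks, at 18.4, 18.5, 18.7 and 19.5 CPM, and spread from 10.5 to 24.2 CPM in high-fat stroke at the same time. Its diet difference was -0.03 ± 0.15.

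Penk and Tac1 differed from the other 8 in their spread. The SD of log2 CPM around group means was 0.85 for Penk and 0.63 for Tac1, larger than for 98.6% and 94.8% of genes tested, against 0.12 for Vip and a median of 0.18 over all genes. Penk held 200, 193, 127 and 109 CPM in control stroke at 6 weeks, ordered from high to low, and 37.1, 42.1, 108 and 61.7 CPM at 15 weeks. These groups did not overlap, by less than 1 CPM, at -1.34 ± 0.59 on the log2 scale, while high-fat stroke gave 0.49 ± 0.47. Over all genes, 9.38% did not overlap between the weeks in control stroke. The diet difference of Penk was -0.70 ± 0.52 at 6 weeks and 1.13 ± 0.55 at 15 weeks, and for Tac1 -0.58 ± 0.39 and 0.82 ± 0.41. An antisense gene, A830012C17Rik, overlaps a Penk exon on the other strand, and its own count never exceeded 0.492% of that of Penk.

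Both genes moved with the level of striatal markers in each library. Over the 26 libraries the deviations of Penk and Tac1 from their group means correlated with each other at r = 0.96, and with the mean of 14 striatum markers, which include neither gene, at r = 0.96 each. These values are descriptive, since libraries share dissection and depth. The 26 libraries run from high-fat stroke library 4 at 15 weeks, with a list mean of 2.27 log2 CPM and 30.1 CPM of Penk, to library 1 of that group, with 5.55 and 295 CPM. Tac1 held 11.1 and 62.2 CPM in these libraries. With the striatum list mean as a covariate the difference between weeks in control stroke went from -1.34 to -0.12 for Penk and from -1.02 to -0.07 for Tac1. The diet difference at 15 weeks went from 1.13 to 0.21 for Penk and from 0.82 to 0.17 for Tac1. The list itself had 0 of 14 members called by edgeR in every comparison. Its fold changes were above 0 in 14 of 14 for diet at 15 weeks. They were above 0 in 0 of 14 for diet at 6 weeks and for weeks in control stroke. The list thus follows the same groups, so striatal tissue in the dissection and a change of striatal transcripts cannot be told apart. The cause of the Penk and Tac1 differences was not tested.

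**Figure D3:**
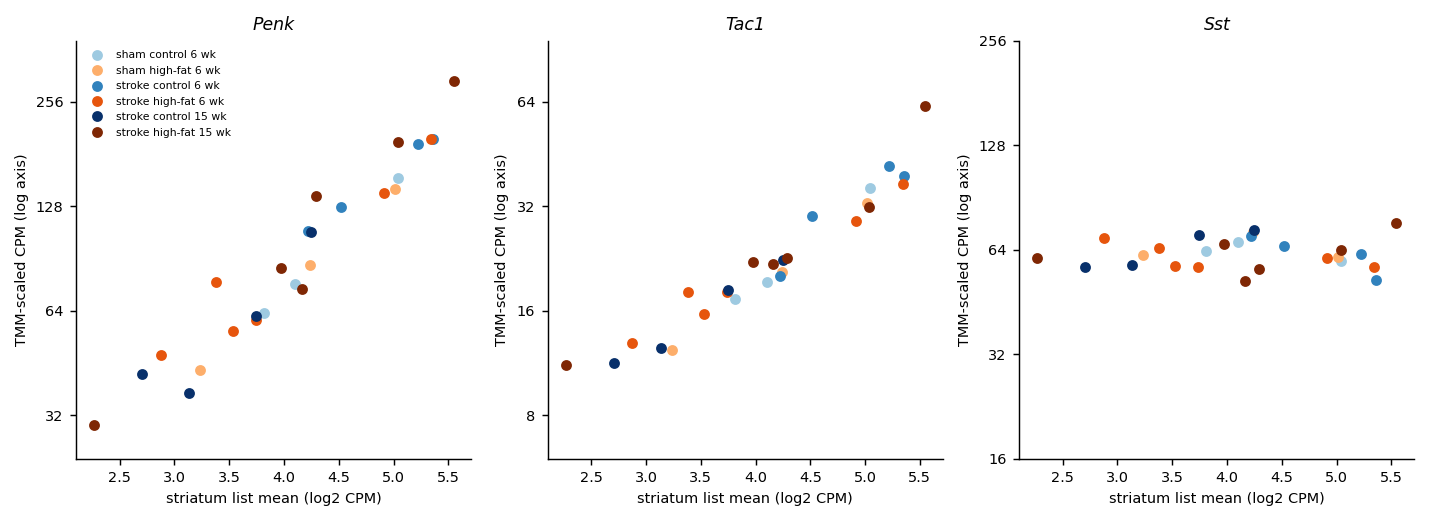
Level of Penk, Tac1 and Sst (vertical log axes, each spanning the same 16-fold range) against the mean of the striatum list (log2 CPM) in each of the 26 libraries, coloured by group. Penk and Tac1 climb with the list from 30.1 to 295 and from 11.1 to 62.2 CPM, and Sst stays between 52.1 and 76.4 CPM.

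Within the 6 libraries of high-fat stroke at 6 weeks, Tac1 correlated with the striatum list mean at r = 0.98 (exact permutation p = 0.00417, rho = 0.94, exact p = 0.0167) and Penk at r = 0.95 (exact permutation p = 0.00833, rho = 0.83, exact p = 0.0583). At 15 weeks, r was 0.95 for Tac1 (exact permutation p = 0.00694) and 0.97 for Penk (exact permutation p = 0.00278), each with rho = 0.94 (exact p = 0.0167). Without the 2 libraries farthest from the median of the list, r was 0.84 and 0.46 at 6 weeks and 0.97 and 0.88 at 15 weeks for Tac1 and Penk, so the value of Penk at 6 weeks rests on those libraries. Sst was negatively related to the activated phagocyte list at 15 weeks, at r = -0.86 (exact permutation p = 0.00694, rho = -0.83, exact p = 0.0583) and r = -0.58 without the 2 farthest libraries. Cck had r = -0.88 with that list (exact permutation p = 0.0444, rho = -0.43, exact p = 0.419) and r = -0.78 without them. All tests are two-sided. Of the 40 relations computed, 0 passed adjustment, with a smallest adjusted p of 0.0667, and 6 had an unadjusted exact p below 0.05. Vip, Cort and Grp had none of these 6 relations.

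Among the other 8 genes the strongest pairs of deviations were Vip with Cck and Crh with Adcyap1, each at r = 0.67 over 26 libraries. Sst and Cck reached r = 0.61, Vip and Crh 0.60, and Cort and Grp 0.57. Npy and Grp moved in opposite directions at r = -0.52, and high-fat stroke library 6 at 6 weeks, with the choroid plexus and hippocampal genes described above, had both the lowest Npy (44.4 CPM) and the highest Grp (10.8 CPM). Sst and Vip, at r = 0.41, were less alike than Sst was with the mean of the peptide processing list, at r = 0.77.

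**Figure D4:**
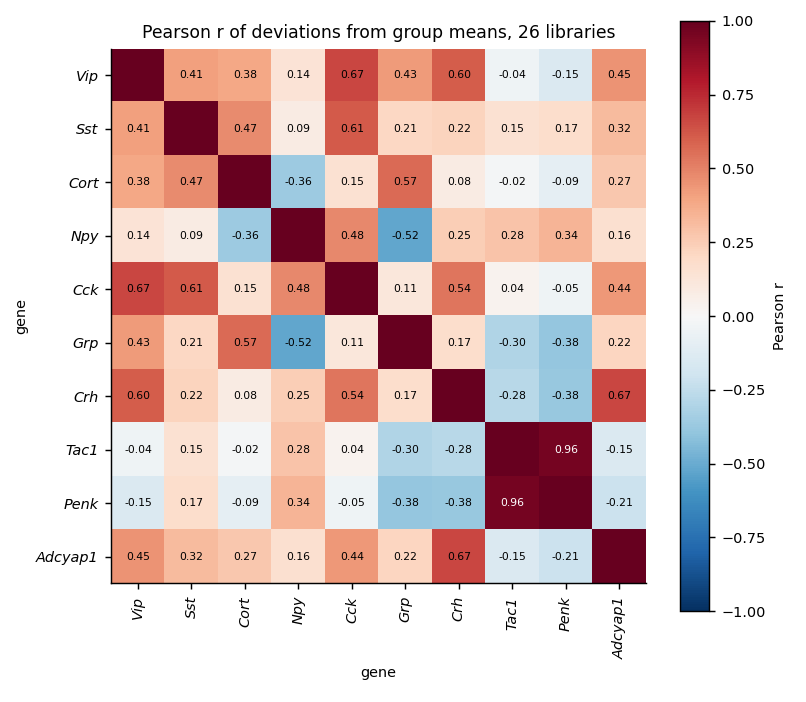
Pearson r of the deviations of log2 CPM from group means over 26 libraries for each pair of the 10 genes, by colour and number, with genes on both axes. Penk with Tac1 is the darkest pair at 0.96, and Npy with Grp the most negative at -0.52.

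Of 11547 named genes with a mean of at least 5 CPM, those whose deviations were most like each neuropeptide gene over the 26 libraries were the following. Among those most like Penk were Gng7 (r = 0.97) and Drd1, and Tac1 was most like Rasgrp2 (r = 0.97), Drd1 and Adora2a, all known for high levels in striatum. Vip was most like Serpini1 (r = 0.88), which encodes neuroserpin, Stmn1 and Vxn. Sst was most like Thra (r = 0.84), Syp, which encodes the vesicle protein synaptophysin, and Chchd6. Npy was most like Chga (r = 0.80), a chromogranin of dense core vesicles, Podxl2 and Rrp1. Cck was most like Hist3h2ba (r = 0.87), Sqstm1 and Dact3. Crh was most like Cdipt (r = 0.82), Pdzrn3 and Ccni, and Adcyap1 most like Ext1 (r = 0.80), Adamts15 and Pdzrn3. Cort was most like Lias (r = 0.74), Eif3j1 and Nxpe3, and Grp most like Fgd4 (r = 0.77), Arl6ip1 and Scoc.

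Receptors for these peptides were tested as a list of 22 genes, one of them the CRH-binding protein, and 20 passed the filter. On the control diet 3 fell with stroke and 0 rose, beside 2.57% of all genes called lower. These were Sstr4, a somatostatin receptor, from 28.1 ± 1.36 CPM in sham (SD, n = 3) to 21.8 ± 2.45 in stroke (n = 4), Cckbr, the cholecystokinin receptor of brain, and Oprd1, the delta opioid receptor, at log2 fold changes of -0.36 ± 0.10, -0.47 ± 0.14 and -0.47 ± 0.15 (edgeR's quasi-likelihood adjusted p = 0.0313, 0.0356 and 0.0467). The calls were lost when single libraries were left out. Without stroke library 2 or 3, or sham library 1 or 2, 0 of the 20 were called lower, and without stroke library 4, 1 was.

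On the high-fat diet 4 of the 20 receptors fell with stroke and 0 rose, beside 8.85% of all genes called lower. Sstr4 fell again, by a log2 fold change of -0.31 ± 0.09 from 30.5 ± 0.41 CPM in sham (n = 3) to 24.6 ± 1.29 in stroke (n = 6) (edgeR adjusted p = 0.0197). Npy5r, a neuropeptide Y receptor, had -0.66 ± 0.20 (edgeR adjusted p = 0.0202), Sstr3 -0.27 ± 0.09 (edgeR adjusted p = 0.0386) and Crhr1, the receptor of Crh, -0.42 ± 0.15 (edgeR adjusted p = 0.0387). Without sham library 1 or 2 on this diet 1 was called, without sham library 3, 0, and without stroke library 3 or 6, 2. With the mean of excitatory neuron markers in the fit, 0 were called. Between the weeks in high-fat stroke, 1 of the 20 fell, beside 1.62% of all genes called lower. This was Sstr2, from 17.5 ± 1.58 to 13.3 ± 1.94 CPM (n = 6 each) at -0.39 ± 0.09 (edgeR adjusted p = 0.0277). It was called in 7 of the 12 fits with 1 library left out, and lost without library 3 or 4 at 15 weeks or library 1, 2 or 5 at 6 weeks, and with only these groups in the fit. In the diet comparisons 0 of the 20 were called by edgeR or DESeq2.

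**Figure D5:**
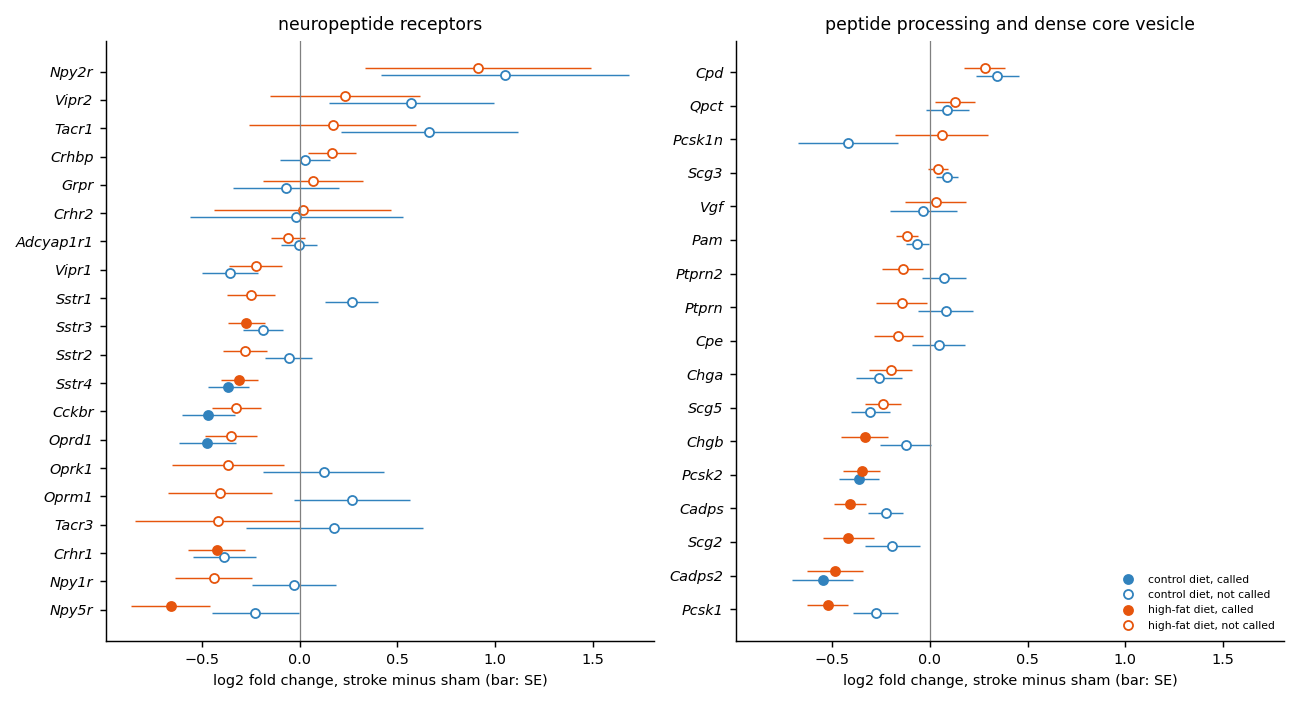
Log2 fold changes with SE (horizontal axes) for stroke minus sham at 6 weeks of the 20 tested receptor genes and the 17 processing and dense core vesicle genes, on the control and high-fat diet, with filled points for genes called. Pcsk1 has the lowest value of the vesicle genes on the high-fat diet, -0.52, and Npy5r of the receptors, -0.66.

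Genes that process peptides or form dense core vesicles made up a list of 17, all tested. On the control diet 2 fell with stroke and 0 rose, beside 2.57% of all genes called lower, namely Pcsk2, a proprotein convertase, at -0.36 ± 0.10 (edgeR adjusted p = 0.0305) and Cadps2, a priming factor of vesicle release, at -0.55 ± 0.16 (edgeR adjusted p = 0.0340). Leaving out stroke library 2 or 3, or any of the 3 sham libraries, left 0. On the high-fat diet 6 fell and 0 rose, beside 8.85% of all genes called lower. Pcsk1, the other main convertase of peptide precursors, went from 91.2 ± 13.5 CPM in sham (n = 3) to 63.5 ± 5.12 in stroke (n = 6), at -0.52 ± 0.10 (edgeR adjusted p = 0.00118). Cadps had -0.41 ± 0.08, Pcsk2 -0.35 ± 0.09 and Cadps2 -0.48 ± 0.14 (edgeR adjusted p = 0.00133, 0.00922 and 0.0180). Pcsk1, Cadps and Pcsk2 were called in all 9 fits that left out 1 library. With the mean of excitatory neuron markers in the fit, 2 of the 17 were called. In the same comparison 7 of 20 excitatory neuron markers fell, among them Camk2a at -0.54 ± 0.16 (edgeR adjusted p = 0.0164), and without sham library 2, 0 did.

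Pcsk1 was also the 1 gene of the 17 that differed between the weeks in high-fat stroke, where it fell from 63.5 ± 5.12 to 46.9 ± 6.47 CPM (n = 6 each) at -0.44 ± 0.09 on the log2 scale (edgeR adjusted p = 0.0107, called in 12 of 12 fits with 1 library left out). Over all genes, 1.62% were called lower in that comparison. Without high-fat stroke library 1 at 15 weeks, 4 of the 17 were called lower, beside 844 of 16329 genes. DESeq2 called 3 of the 17 lower between these weeks, beside 446 of 16325 genes. In the diet comparisons 0 of the 17 were called by either tool.

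Other neuropeptide genes, a list of 27 of which 15 were tested, gave 0 calls by edgeR on the control diet. In high-fat mice 1 fell with stroke, Cbln4, which encodes a secreted synapse organiser, from 13.2 ± 3.57 CPM (n = 3) to 5.78 ± 1.15 (n = 6), at -1.19 ± 0.21 (edgeR adjusted p = 0.000531), and it was called in all 9 fits with 1 library left out. This is 1 of 15, beside 8.85% of all genes called lower. On the control diet Cbln4 had -0.73 ± 0.24 (edgeR adjusted p = 0.0552). Cbln4 was also the 1 gene of this list called between the weeks in high-fat stroke, at -0.74 ± 0.19 (edgeR adjusted p = 0.0410), a result named after its value was seen. Over all genes, 1.62% were called lower between those weeks.

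Interneuron markers other than peptides made up a list of 30 genes, all tested. On the control diet 0 were called by edgeR and 1 by DESeq2, and the smallest p belonged to Pvalb, which marks fast-spiking basket cells, at -0.50 ± 0.16 (edgeR adjusted p = 0.0521). On the high-fat diet 2 fell and 1 rose, beside 8.85% of all genes called lower and 14.2% higher. Kcnc2, a potassium channel of fast-spiking cells, had -0.35 ± 0.09 (edgeR adjusted p = 0.00781) and Lamp5, a marker of superficial interneurons that pyramidal cells also express, -0.78 ± 0.22 (edgeR adjusted p = 0.0136). Leaving out high-fat stroke library 6 and sham library 2 together, 0 of the 30 were called lower, as with the mean of excitatory neuron markers in the fit. Without sham library 2, 1 was called lower. For diet or weeks 0 interneuron markers were called by edgeR or DESeq2. The part that cell composition plays in the levels of the 10 peptide genes was not tested.

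Neuronal activity genes, a list of 20, had 0 calls by edgeR for stroke on the control diet, where Junb, an immediate early gene, had the smallest p at -0.53 ± 0.18 (edgeR adjusted p = 0.0696). In high-fat mice Homer1, a synaptic scaffold induced by activity, fell by 0.63 on the log2 scale and Junb rose by 0.75 (edgeR adjusted p = 0.00219 and 0.00375). Both were called in all 9 fits with 1 library left out. Over all genes, 8.85% were called lower and 14.2% higher in this comparison. Junb held 39.1 ± 11.1 CPM in high-fat sham (SD, n = 3), 65.8 ± 7.66 in high-fat stroke (n = 6) and 76.0 ± 12.1 in control sham (n = 3). High-fat stroke thus had a lower mean than control sham. For diet in 15-week stroke 1 of the 20 log2 fold changes was above 0, with a median of -0.43, against 11 of 20 and 0.01 in 6-week stroke. None was called by edgeR in either. Between the weeks 1 was called higher in control stroke and 2 lower in high-fat stroke, beside 0.239% and 1.62% of all genes. The relation of this list to the lower peptide values was not tested. Among genes of neighbouring regions, 0 of 15 hippocampus and amygdala genes and 0 of 8 choroid plexus genes were called for stroke on either diet by edgeR, and 0 of 8 hypothalamus and thalamus genes on the control diet. In high-fat mice 1 of those 8 fell, Rora at -0.45 ± 0.10, and 1 rose, Prkcd at 1.27 ± 0.32 (edgeR adjusted p = 0.00369 and 0.00639). Rora held 128 to 225 CPM in the 26 libraries. Whether either gene reflects neighbouring tissue was not tested.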

How the data were processed

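Total RNA from 26 mouse cortex libraries was sequenced as stranded paired-end reads, per the labels' protocols. Each deposited table lists raw read counts by Ensembl gene identifier, and the submitters' processing notes name Trim Galore, STAR, featureCounts, HTSeq and build mm9 with no role or version. The annotation, its strand setting and mapping parameters are not given in the sources used here. Summary entries of reads not assigned to a gene for any reason, 45.7% to 58.2% of each file, were left out. Reads outside genes alone made up 18.9% to 32.1% of each file. Of 39179 gene identifiers, 37607 had a name.

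The members and lists were chosen with earlier results of these data known. Groups came from the labels, which number no replicates, so libraries are numbered in accession order. Nothing says that libraries came from separate animals, and p-values measure only the spread between libraries. The 48 pairs of libraries within groups all differed by more than sampling noise (ratios of chi-square to degrees of freedom from 3.52 to 76.2).

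Genes with a count of at least 10 by filterByExpr were kept (16325), scaled by TMM and fitted with edgeR 4.0.16 (robust quasi-likelihood test, limma 3.58.1, R 4.3.3) over all 6 groups with no covariate. Genes were called at a Benjamini-Hochberg adjusted p below 0.05 over all genes. The SE is the log2 fold change divided by the root of its F statistic. Log2 CPM used a prior count of 2. Relations within groups used exact permutation tests (scipy 1.17.1, Python 3.11.15). Libraries held 11400882 to 16962682 counts, and the common biological coefficient of variation was 0.136. The lowest counts of Crh, Cort and Grp, 29, 33 and 38, add counting error to their values. In counts simulated for the 16325 genes with 200 changed, 68% of 2-fold and 50% of 1.5-fold changes were recovered in the control-diet comparison of stroke with sham, and 67% and 52% in the high-fat comparison, with 3.28% and 2.46% of calls false.

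All 10 members are named. From every other list, up to 4 called genes with the smallest p in each stroke comparison qualify (1 where none is called), and up to 3 called receptor, processing or interneuron genes in diet and weeks, besides the 3 genes most like each member; some genes that qualify are not reported here. Alternatives were RLE scaling, DESeq2 1.42.0, no filter, a minimum count of 30, a non-robust fit, only the groups compared, 27 mitochondrial, ribosomal RNA and haemoglobin genes removed, list means as covariates, and libraries left out.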

Additional observations from a re-analysis of the deposited data

How the results depend on the processing

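With only the groups compared in the fit, 1 of the 10 genes was called for stroke on the control diet (Vip, -0.22, edgeR adjusted p = 0.0427) and 1 on the high-fat diet (Adcyap1, -0.29, edgeR adjusted p = 0.0480), and 2 rather than 4 for weeks in high-fat stroke. For diet at 15 weeks 1 gene, Vip, was called by DESeq2 and with interneuron markers as a covariate; the choice of genes used these values, so the calls support nothing. In other settings the 10 genes' counts for stroke stayed at 0. With excitatory neuron markers as a covariate the stroke value turned to 0.0729 for Sst and 0.0608 for Cort on the control diet, and to 0.0931 for Sst, 0.0399 for Cck, 0.48 for Tac1 and 0.24 for Isl1, a striatum marker with -0.46 ± 0.80 (edgeR adjusted p = 0.723), on the high-fat diet. With striatum markers it was 0.0028 for Cort (control) and 0.14 for Tac1 (high-fat). Tac1 also had 0.10 with interneuron markers and 0.0056 with only the groups compared. Without high-fat stroke library 6 and sham library 2, Grp had -0.0755 and Penk -0.19. With 1 library left out, control-diet values ran from -0.0769 to 0.0571 for Sst, -0.0983 to 0.0434 for Cort and -0.359 to 0.0309 for Crh, and high-fat values from -0.0421 to 0.18 for Npy, -0.11 to 0.10 for Cck, -0.0555 to 0.17 for Grp, -0.29 to 0.40 for Tac1, -0.26 to 0.57 for Penk and -0.91 to 0.33 for Isl1. The cause was not tested.

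Over all genes, the 1253 calls for stroke on the control diet became 767 with no filter, 3158 with interneuron markers, 2453 with only the groups compared, 345 and 623 without stroke library 2 or 3, and 303, 324 and 465 without sham library 1, 2 or 3. The 3769 on the high-fat diet became 1139 with excitatory neuron markers, 1833 without both choroid-rich libraries and 1991 without sham library 2. The 92 for weeks in control stroke became 0 with no filter, striatum markers or only the groups compared, 44 with RLE scaling, 258 with interneuron and 760 with excitatory neuron markers, 286 with DESeq2 and 514 without both libraries low in injury genes. With 1 library left out it became 0 (6-week library 2, 3 or 4, or 15-week library 1), 3 (15-week library 4) and 19 (15-week library 3), and 59 and 133 without the others. For weeks in high-fat stroke (2.35% of genes called) the count became 127 with only the groups compared, 1715 without both libraries low in injury genes, 160 with no filter, 716 with DESeq2, 919 with excitatory and 1327 with interneuron markers, and from 135 to 1308 with 1 library left out, the highest without library 1 at 15 weeks and within 1.5 times of the full count only without 6-week library 3 or 6 or 15-week library 5 (387, 335 and 409). For diet at 15 weeks it was 86 with interneuron markers and 10 with DESeq2. No paired analysis was possible because the labels give no replicate numbers. At this number of libraries differences of 2-fold and below can be missed: 68% and 67% of simulated 2-fold changes were recovered.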
